A study of Mus musculus with 5 samples.

Results

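The connexins and the pannexin of the neurovascular unit were taken as 8 genes, *Gja1*, *Gjb6*, *Gjb2*, *Gja4*, *Gja5*, *Gjc1*, *Gjc3* and *Panx1*, whose Ensembl identifiers carry these symbols in the NCBIM37 annotation. They are 8 of the 23 connexin and pannexin genes in that annotation and 8 of 34615 gene symbols in the data. Brain microvascular fragments came from male mice of 26 to 38 weeks, 3 WT and 2 Ins2-AKITA, and their RNA was sequenced as 1 library per mouse. The question was whether long-standing hyperglycemia changes the transcriptome of the vessel wall and of the cells attached to it. Ins2-AKITA mice are heterozygous for a point mutation of *Ins2*, an insulin gene, that harms the insulin-producing beta cells and makes the animals hyperglycemic from an early age. A point mutation cannot be seen in FPKM values, so the genotype was taken from the labels. WT mice were littermates with the normal gene, and both groups had the C57BL6 background (C57Bl/6-J in the study's methods). The fragments had been freed with collagenase and captured with magnetic beads against PECAM1, a surface protein of endothelial cells. Each library therefore mixes RNA of endothelial cells with that of whatever stayed attached, among them pericytes and the end-feet of astrocytes.

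Connexins are membrane proteins that assemble into hexameric channels. When channels of neighbouring cells dock they form gap junctions, through which ions and small molecules pass from cell to cell, and undocked channels can open to the outside as hemichannels. Pannexins have the same overall fold but work mainly as single-membrane channels, best known for releasing ATP. In the brain, *Gja1* and *Gjb6* encode the main connexins of astrocytes, which couple these cells into a network that reaches the vessel wall at the end-feet. *Gja4* and *Gja5* encode connexins of endothelium, above all in arteries, and *Gjc1* encodes a connexin of mural cells. *Gjc3* is expressed in oligodendrocytes.

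The values are FPKM, the number of sequenced fragments divided by exon length and by the size of the library, so levels of different genes can be set side by side per length. All 8 genes averaged 1 FPKM or more over the 5 mice and entered the test. The fold changes below are limma estimates on the log2(FPKM + 1) scale, Ins2-AKITA over WT, each with its standard error (SE) and 95% confidence interval. Their p-values are given both unadjusted and adjusted by Benjamini-Hochberg over all 16286 symbols tested. The exact permutation p-values compare the group means over all 10 ways of assigning the 5 mice, are two-sided and cannot fall below 0.1.

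RefSeq promoter windows were at hand for 7 of the 8 genes, *Gjc1* being the exception. The stretches of the most abundant pair, *Gja1* and *Gjb6*, and of the endothelial *Gja4* are shown because these genes stood on opposite sides of 0 in the genotype comparison. Each run is the 150 bases before the RefSeq start in GRCm38.p6, 5′ to 3′, at chr10:56377150-56377299 (plus strand), chr14:57133612-57133761 (minus strand) and chr4:127314040-127314189 (minus strand), with capitals marking GGGCGG, the core of a GC box.
*Gja1*: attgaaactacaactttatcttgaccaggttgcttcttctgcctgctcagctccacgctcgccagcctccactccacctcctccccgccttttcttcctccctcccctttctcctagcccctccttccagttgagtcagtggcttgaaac
*Gjb6*: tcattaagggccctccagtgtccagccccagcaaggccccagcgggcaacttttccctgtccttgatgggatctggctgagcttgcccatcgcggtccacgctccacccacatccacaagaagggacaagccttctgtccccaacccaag
*Gja4*: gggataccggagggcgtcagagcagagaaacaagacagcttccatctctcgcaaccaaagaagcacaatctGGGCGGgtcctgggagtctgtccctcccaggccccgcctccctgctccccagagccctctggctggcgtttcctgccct

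Across the whole 300-base windows, from 250 bases before to 50 after the start, 3 letter patterns were searched on both strands. GGGCGG occurred once in *Gja4*, once in *Gja5* and 2 times in *Gjb2*, and in none of the other 4 windows, while 35.7% of the 32851 promoters in the RefSeq table held it. TATAAA, known from core promoters, and CACGTG, an E-box sequence, were found in none of the 7 windows, against 13.6% and 7.15% of all promoters. The patterns do not overlap each other, and a match is only a match of letters. The GC content ran from 47.7% in *Gja1* to 70.0% in *Gjb2*, with 57.3% in *Gjb6* and 62.0% in *Gja4*.

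In position, *Gjb2* (chr14:57717437-57723539) and *Gjb6* (chr14:57742140-57752448) are neighbours on the minus strand of NCBIM37, with the lens connexin *Gja3* beside them at chr14:57654445-57676867. *Gja3* was listed at 0 FPKM in every mouse. With about 0.265 to 0.670 FPKM per fragment, depending on the mouse, 3 fragments of *Gja3* would have been 0.796 to 2.01 FPKM, which is about the one-sided 95% Poisson limit for a count of 0. *Gjb2* and *Gjb6* therefore lay beside a connexin gene that was not detectable at this depth. *Gja4* is at chr4:126988665-126991283 on the minus strand.

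**Figure D1:**
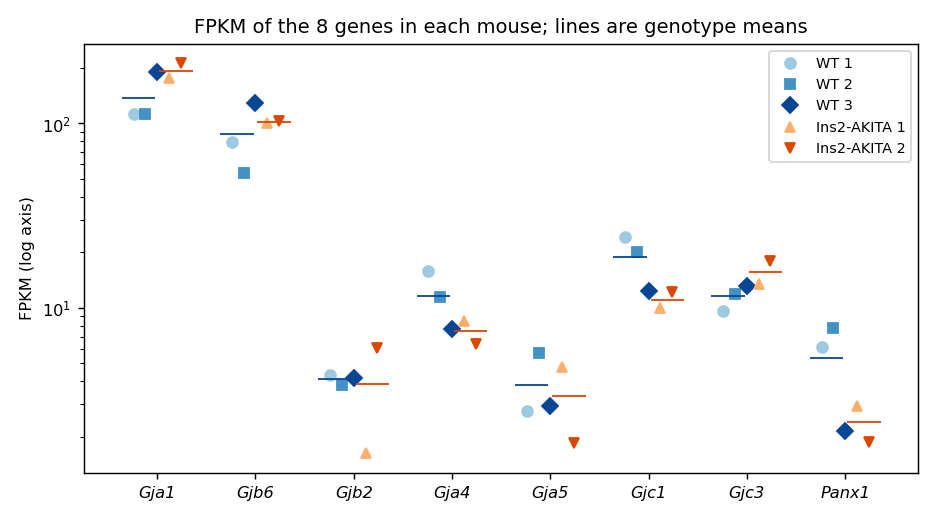
FPKM of each of the 8 genes (log axis) in the 3 WT mice (blue) and 2 Ins2-AKITA mice (orange), 1 point per mouse, with a line at each genotype mean. *Gja1* and *Gjb6* lie above 50 FPKM in every mouse, and WT 3 sits near the Ins2-AKITA points for most genes.

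The main connexins of astrocytes were the most abundant members. *Gja1* ranked first and *Gjb6* second in all 5 mice, with mean levels of 160 and 93.1 FPKM over the mice. *Gja1* exceeded *Gjb6* in 5 of 5 mice, by 0.79 ± 0.26 on the log2 scale (SD, n = 5), and *Gjb6* exceeded the next gene, *Gjc1*, in 5 of 5 mice by 2.50 ± 0.91. Then came *Gjc1* (mean 15.8 FPKM), *Gjc3* (13.3) and *Gja4* (9.97). These neighbours did not differ beyond their spread: *Gjc1* was above *Gjc3* in 2 of 5 mice (log2 difference 0.19 ± 0.77), and *Gjc3* above *Gja4* in 4 of 5 (0.41 ± 0.76). *Gja4* exceeded *Panx1* in 5 of 5 mice, by 1.17 ± 0.39 on the log2 scale. The lowest members, *Panx1* (mean 4.18 FPKM), *Gjb2* (4.004) and *Gja5* (3.61), could not be put in order, with log2 differences between neighbours of -0.03 ± 0.93 and 0.12 ± 0.95.

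None of the 8 genes passed an adjusted p of 0.05 in limma, and none had an unadjusted p under 0.05. Their smallest adjusted p was 0.90. Over all symbols, 0.0246% passed the adjusted threshold and 4.46% had an unadjusted p under 0.05. Of the 8 estimates, 3 were above 0 (*Gja1*, *Gjb6* and *Gjc3*) and 5 below 0, against 46.5% and 53.5% of all symbols, while after rescaling to TPM all 8 were above 0, with the median of all symbols at 1.07. In TPM *Gja1*, *Gjb6* and *Gjc3* remained above that median (by 1.10, 0.83 and 0.48) and the other 5 below it. On the FPKM scale the median of the 8 genes was -0.22 and that of all symbols -0.03. Both Ins2-AKITA values lay on the same side of the WT range for 2 of the 8 genes, above it for *Gjc3* and below it for *Gjc1*, where 9.24% and 10.3% of all symbols had such values. For *Gjb2* they lay on opposite sides of it, and for the other 5 genes at least 1 of them lay within it.

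**Figure D2:**
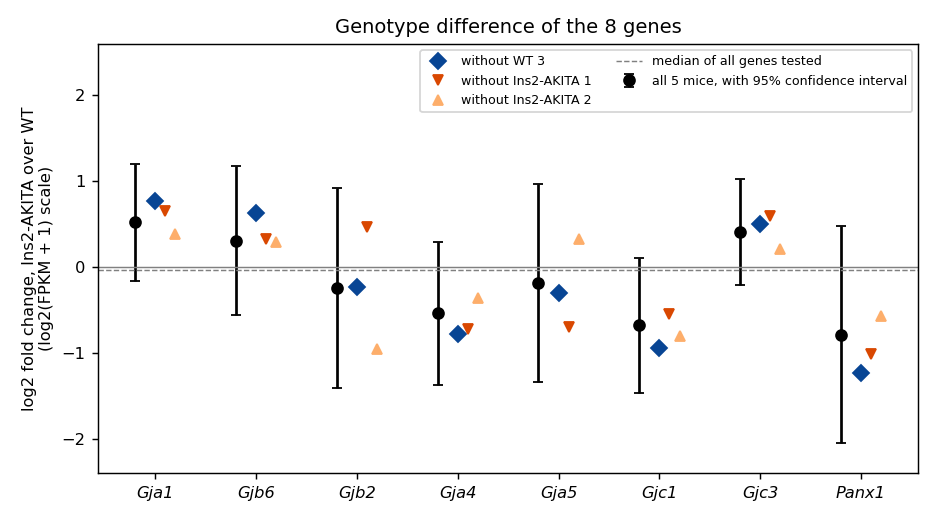
Log2 fold change, Ins2-AKITA over WT, of each gene on the log2(FPKM + 1) scale, with the 95% confidence interval of the fit on 5 mice (black) and the estimate after leaving out WT 3 or either Ins2-AKITA mouse (coloured). All 8 black intervals include 0, and the estimates of *Gjb2* and *Gja5* take opposite signs depending on which Ins2-AKITA mouse is left out.

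*Gja1* (ENSMUSG00000050953, chr10:56097106-56110225, plus strand) measured 113, 113 and 189 FPKM in WT 1, 2 and 3, and 176 and 212 FPKM in Ins2-AKITA 1 and 2. The first 2 WT mice were the lowest, and WT 3 lay between the Ins2-AKITA mice. The means were 138 ± 44.1 (SD, n = 3) and 194 ± 25.4 FPKM (SD, n = 2), a 1.40-fold difference. The log2 fold change of *Gja1* was 0.52 (SE 0.28, interval -0.16 to 1.20, unadjusted p = 0.11 and adjusted p = 0.90 in limma), and the exact permutation test gave p = 0.3. Counting error was small here, since the value of Ins2-AKITA 2 rested on about 783 fragments (95% Poisson interval 197 to 227 FPKM) and that of WT 1 on about 380 (102 to 125 FPKM). Such intervals cover counting error only.

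*Gjb6* (ENSMUSG00000040055, chr14:57742140-57752448) measured 79.3, 53.8 and 129 FPKM in the WT mice, and 101 and 103 FPKM in the Ins2-AKITA mice. WT mice held both the lowest and the highest value, and the Ins2-AKITA mice lay close together between them. The means were 87.3 ± 38.1 and 102 ± 1.57 FPKM. The difference of 0.31 on the log2 scale (SE 0.36, interval -0.56 to 1.18, unadjusted p = 0.42 and adjusted p = 0.91 in limma) was smaller than the spread among WT mice.

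*Gjb2*, a connexin with a close relation to *Gjb6* in sequence and position that is known in the brain from leptomeningeal cells and astrocytes, was much lower. It measured 4.32, 3.82 and 4.19 FPKM in the WT mice, and 1.63 and 6.07 FPKM in the Ins2-AKITA mice. The 2 Ins2-AKITA mice thus fell on opposite sides of a narrow WT range, with means of 4.11 ± 0.26 and 3.85 ± 3.14 FPKM. The fold change of -0.24 on the log2 scale (SE 0.48, unadjusted p = 0.63 and adjusted p = 0.95 in limma) had an interval from -1.41 to 0.92, and it was 0.47 without Ins2-AKITA 1 and -0.96 without Ins2-AKITA 2. The lower of those mice held about 4 fragments of *Gjb2* (0.443 to 4.16 FPKM) and the higher about 17 (3.53 to 9.71 FPKM). These counting intervals overlap, but whether the 2 counts differ was not tested.

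*Gja4* (ENSMUSG00000050234) and *Gja5*, the endothelial connexins, did not follow each other from mouse to mouse. *Gja4* measured 15.8, 11.4 and 7.70 FPKM in the WT mice, and 8.51 and 6.40 FPKM in the Ins2-AKITA mice. WT 1 and WT 2 were the highest, while WT 3 lay between the Ins2-AKITA mice. The WT mean of 11.7 ± 4.08 FPKM was 1.56 times the Ins2-AKITA mean of 7.46 ± 1.49 FPKM. On the log2 scale *Gja4* differed by -0.54 (SE 0.35, interval -1.38 to 0.30, unadjusted p = 0.17 and adjusted p = 0.90 in limma, exact permutation p = 0.3). About 12 to 32 fragments stood behind each value, so that the counting interval of Ins2-AKITA 2 alone spans 3.31 to 11.2 FPKM.

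*Gja5* (ENSMUSG00000057123, chr3:96708616-96881339, plus strand) measured 2.77, 5.72 and 2.93 FPKM in the WT mice, and 4.79 and 1.86 FPKM in the Ins2-AKITA mice. WT 2 and Ins2-AKITA 1 were high and the other 3 mice low, with means of 3.81 ± 1.66 and 3.33 ± 2.08 FPKM. The log2 fold change of -0.19 (SE 0.48, interval -1.34 to 0.97, unadjusted p = 0.71 and adjusted p = 0.96 in limma) was -0.70 without Ins2-AKITA 1, 0.32 without Ins2-AKITA 2 and 0.08 without WT 2. The exons of *Gja5* overlap exons of *Gpr89* on the other strand. The libraries were stranded, but whether the counting used strand is not given in the sources used here, so the *Gja5* level is uncertain. The ratio of *Gja5* to *Gja4* was 17.5%, 50.1% and 38.0% in WT mice, against 56.3% and 29.0% in Ins2-AKITA mice.

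*Gjc1* (ENSMUSG00000034520, chr11:102660893-102681014, minus strand) measured 24.4, 20.2 and 12.3 FPKM in the WT mice, and 10.003 and 12.2 FPKM in the Ins2-AKITA mice. WT 1 and WT 2 stood apart from the other 3 mice, and WT 3 was above Ins2-AKITA 2 by the narrow margin of 12.31 against 12.16 FPKM. The means were 19.0 ± 6.13 and 11.1 ± 1.52 FPKM, a ratio of 1.71. The log2 fold change was -0.68 (SE 0.32, interval -1.46 to 0.11), with the smallest unadjusted p of the 8 genes, 0.079, and an adjusted p of 0.90 in limma. The exact permutation p of *Gjc1* was 0.2.

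*Gjc3* (ENSMUSG00000056966, chr5:138395037-138404187, minus strand) measured 9.63, 11.97 and 13.2 FPKM in the WT mice, and 13.5 and 18.0 FPKM in the Ins2-AKITA mice. All WT values lay below both Ins2-AKITA values, again with a narrow gap, 13.23 against 13.48 FPKM. The means were 11.6 ± 1.83 and 15.7 ± 3.17 FPKM, a 1.35-fold difference. The log2 fold change of 0.41 (SE 0.25, interval -0.21 to 1.02) had an unadjusted p of 0.16 and an adjusted p of 0.90 in limma, and the exact permutation p was 0.2.

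*Panx1* (ENSMUSG00000031934, chr9:14809605-14849922, minus strand), the pannexin of the group, measured 6.12, 7.81 and 2.15 FPKM in the WT mice, and 2.93 and 1.89 FPKM in the Ins2-AKITA mice. WT 1 and WT 2 were high, and WT 3 again lay between the Ins2-AKITA mice. The WT mean of 5.36 ± 2.91 FPKM was 2.23 times the Ins2-AKITA mean of 2.41 ± 0.74 FPKM, the widest ratio of the 8 genes. The log2 fold change was -0.79 (SE 0.52, interval -2.05 to 0.47, unadjusted p = 0.18 and adjusted p = 0.90 in limma, exact permutation p = 0.3). About 6 to 26 fragments stood behind a value, and the counting interval of Ins2-AKITA 2 was 0.692 to 4.11 FPKM.

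Of the 8 genes, 7 had a WT 3 value nearer to the Ins2-AKITA mean than to the mean of the other WT mice on the log2(FPKM + 1) scale, with *Gjb2* the exception. The same held for 61.6% of all symbols. WT 3 was also the deepest library, with about 2851619 fragments against 1127580 to 1320096 in the others. Small RNA and rRNA genes held 96.7%, 96.6% and 58.0% of the FPKM sum in WT 1, 2 and 3. In Ins2-AKITA 1 and 2 they held 89.6% and 40.6%, so this share was highest in WT 1 and WT 2. The part of depth and of this share in the connexin values was not tested. Without WT 3 the log2 fold change was 0.77 for *Gja1*, -0.95 for *Gjc1*, -1.23 for *Panx1* and -0.79 for *Gja4*. Leaving out that mouse gave 3 of the 8 genes an unadjusted p under 0.05 in limma, *Gja1* (0.010), *Gjc1* (0.014) and *Panx1* (0.024), beside 8.61% of all symbols, and the smallest adjusted p was 0.56.

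Markers of the cell types were read from the same libraries. None of the markers was at 0 in all mice, and in bulk samples fewer cells of a type and less RNA per cell cannot be told apart. The 7 astrocyte markers other than *Gja1* and *Gjb6* summed to 2092, 2517 and 2874 FPKM in WT 1, 2 and 3, and to 3281 and 3878 FPKM in the Ins2-AKITA mice. All 7 of their log2 fold changes were above 0, against 46.5% of all symbols. The median was 0.47 (2.08 in TPM, 1.02 above the median of all symbols). One of the 7, *Aldh1l1*, had an unadjusted p under 0.05, as did 4.46% of all symbols (log2 fold change 1.03, adjusted p = 0.80 in limma). *Gja1* and *Gjb6* thus stood on the same side of 0 as these 7 markers, but the *Gjb6* estimate was 0.01 without WT 2. *Gjb2*, also known from astrocytes, was below 0 (-0.24).

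The 10 endothelial markers summed to 513, 715 and 445 FPKM in WT 1, 2 and 3, and to 428 and 353 FPKM in the Ins2-AKITA mice. Of their log2 fold changes 9 were below 0, against 53.5% of all symbols, with a median of -0.43, whereas in TPM all 10 were above 0, with a median 0.07 above that of all symbols. The estimates of 2 genes, those of *Cdh5* (-0.58) and *Ly6c1* (-1.08), had an unadjusted p under 0.05, as did 4.46% of all symbols, each with an adjusted p of 0.90 in limma. The ratio of the astrocyte to the endothelial marker sum was 4.08, 3.52 and 6.46 in WT mice, against 7.67 and 10.997 in Ins2-AKITA mice. Its astrocyte sum leaned most on *Slc1a2* (1013 to 2110 FPKM over the mice) and *Aldoc* (585 to 944 FPKM). This ratio was highest in the mice where *Gja1* was high and *Gja4* and *Panx1* were low, WT 3 included. Its part in the connexin values was not tested.

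The 8 markers of arterial endothelium, where *Gja4* and *Gja5* are best known, summed to 124.9 to 168.3 FPKM in WT and 147.7 to 160.4 FPKM in Ins2-AKITA mice. Their median log2 fold change was -0.04, with estimates from -1.22 to 0.79, of which 4 were above 0 and 4 below. *Stmn2*, at 49.2 to 75.3 FPKM, was the highest of the list in every mouse, so the sums leaned most on this gene. Neuronal markers summed to 707 to 837 FPKM in the same libraries, and the cell type behind the *Stmn2* RNA is not settled by these values. The sums need therefore not follow arterial endothelium. One of the 8, *Sema3g* (-0.94), had an unadjusted p under 0.05, as did 4.46% of all symbols, and an adjusted p of 0.90 in limma. With Cufflinks the study had called *Sema3g* lower in Ins2-AKITA mice. The 8 pericyte markers summed to 208 to 258 FPKM and 186 to 234 FPKM, with a median of -0.14. The 6 smooth muscle markers summed to 335 to 394 FPKM in WT and to 222 to 271 FPKM in Ins2-AKITA mice, and all 6 estimates were below 0 (median -0.60; 53.5% of all symbols were below 0), but 5 of 6 above 0 in TPM, with a median that differed by -0.14 from that of all symbols. Among them 3, *Acta2*, *Myh11* and *Tagln*, had an unadjusted p under 0.05, as did 4.46% of all symbols, each with an adjusted p of 0.90 in limma. *Gjc1*, the mural connexin, was below the median of all symbols in both scalings, as was the smooth muscle median. The pericyte median (-0.14) was below that of all symbols (-0.03) on the FPKM scale and lay 0.04 above it in TPM. The 7 oligodendrocyte markers other than *Gjc3* summed to 1933 to 2624 FPKM and 2103 to 2314 FPKM, with a median of 0.07. The 4 erythroid markers summed to 56.5, 64.5 and 33.7 FPKM in WT 1, 2 and 3 and to 30.5 and 25.1 FPKM in Ins2-AKITA 1 and 2, and all 4 estimates were below 0 (median -1.02), but all 4 above 0 in TPM, with a median that differed by -0.73 from that of all symbols. One of the 4, *Hba-a2*, had an unadjusted p under 0.05, as did 4.46% of all symbols (adjusted p = 0.90 in limma). The part of these markers in the connexin values was not tested.

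**Figure D3:**
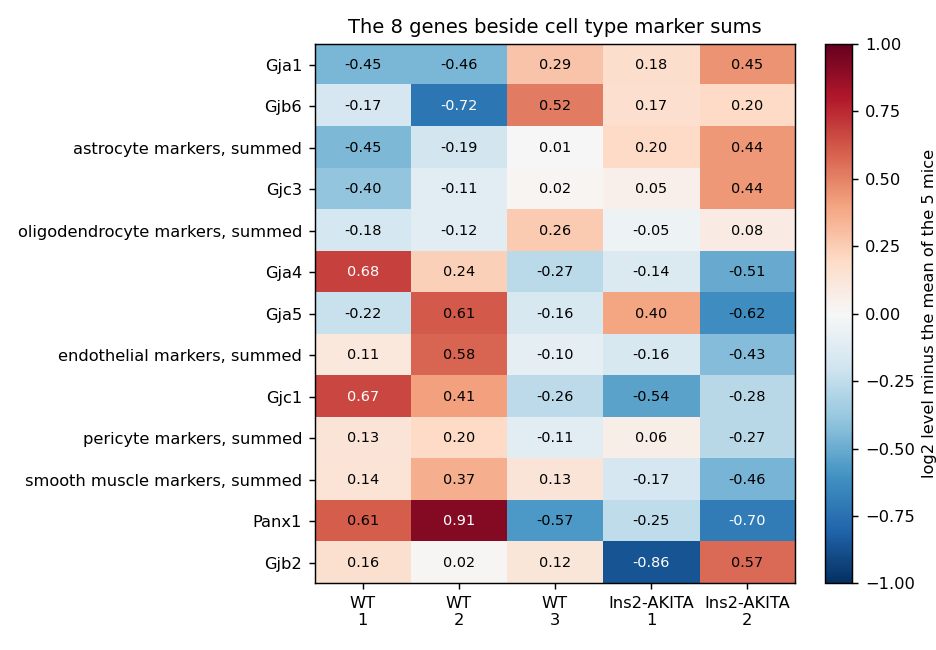
Log2 level of each of the 8 genes and of each summed marker list in each mouse, minus its mean over the 5 mice (colour and number in each cell, red above and blue below the mean). *Gja1*, *Gjb6* and the astrocyte markers are lowest in WT 1 and WT 2, while *Gja4*, *Gjc1* and *Panx1* are highest there.

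Ratios within a mouse do not depend on how that mouse was scaled, and 9 were tested by exact two-sided permutation with adjustment over the 9. *Gja1* over *Aqp4*, the water channel of astrocyte end-feet, differed by -0.10 on the log2 scale (exact permutation p = 0.8), and *Gjb6* over *Aqp4* by -0.31 (p = 0.5). *Gja4* was 3.09%, 1.60% and 1.73% of the endothelial marker sum in WT mice, against 1.99% and 1.82% in Ins2-AKITA mice. That log2 difference was -0.10 (exact permutation p = 1.0), and it ran from -0.28 without WT 2 to 0.19 without WT 1. The difference was 0.23 for *Gja5* over the endothelial markers (p = 0.7 by exact permutation), -0.50 for *Panx1* over them (p = 0.4) and -0.35 for *Gjc1* over the pericyte and smooth muscle markers (p = 0.4).

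*Gjc3* was set against the other oligodendrocyte markers. It was 0.498%, 0.595% and 0.504% of the oligodendrocyte marker sum in WT mice, against 0.641% and 0.777% in Ins2-AKITA mice, without overlap. The log2 difference of 0.41 had an exact permutation p of 0.1, the smallest that 5 mice can give, and an adjusted p of 0.9. The marker sum leaned most on *Mbp* (981 to 1471 FPKM over the mice) and *Mobp* (655 to 878 FPKM). Of the 7 markers, *Cnp* also lay higher without overlap (log2 fold change 0.41), as did 9.24% of all symbols, and 3 had estimates below 0. *Gjb6* over *Gja1* differed by -0.21 (exact permutation p = 0.5) and *Gja5* over *Gja4* by 0.33 (p = 0.7). None of the 9 ratios had an adjusted p under 0.9. The *Gja5* to endothelial ratio was -0.32 without Ins2-AKITA 1 and 0.77 without Ins2-AKITA 2.

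**Figure D4:**
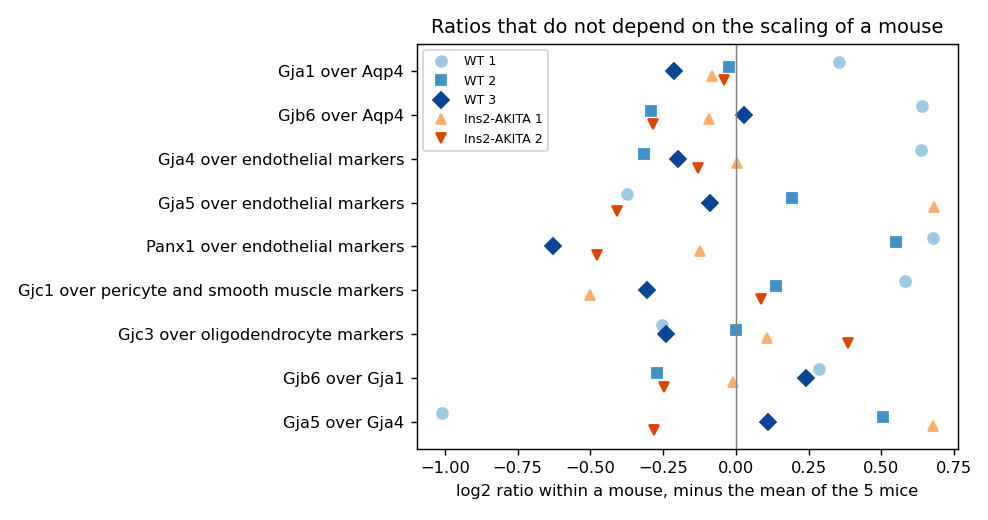
Log2 of each within-mouse ratio minus its mean over the 5 mice (horizontal axis), 1 point per mouse, for the 9 ratios listed on the vertical axis. Both Ins2-AKITA points lie to the right of all WT points for *Gjc3* over the oligodendrocyte markers, and the genotypes overlap in the other 8 rows.

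The 8 genes made up most of the connexin and pannexin FPKM, 81.6% to 86.4% of the sum over all 23 genes in each mouse. *Gja1* alone held 36.7%, 41.5% and 42.8% of it in WT mice, against 47.8% and 50.01% in Ins2-AKITA mice. *Gja1* and *Gjb6* together held 62.4%, 61.3% and 72.0% in WT mice, against 75.2% and 74.3% in Ins2-AKITA mice. The vascular *Gja4*, *Gja5* and *Gjc1* together held 13.97%, 13.7% and 5.20% in WT mice, against 6.34% and 4.83% in Ins2-AKITA mice. In the last 2 shares WT 3 was nearer to the Ins2-AKITA mice than to the other WT mice, whereas its *Gja1* share was next to that of WT 2.

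**Figure D5:**
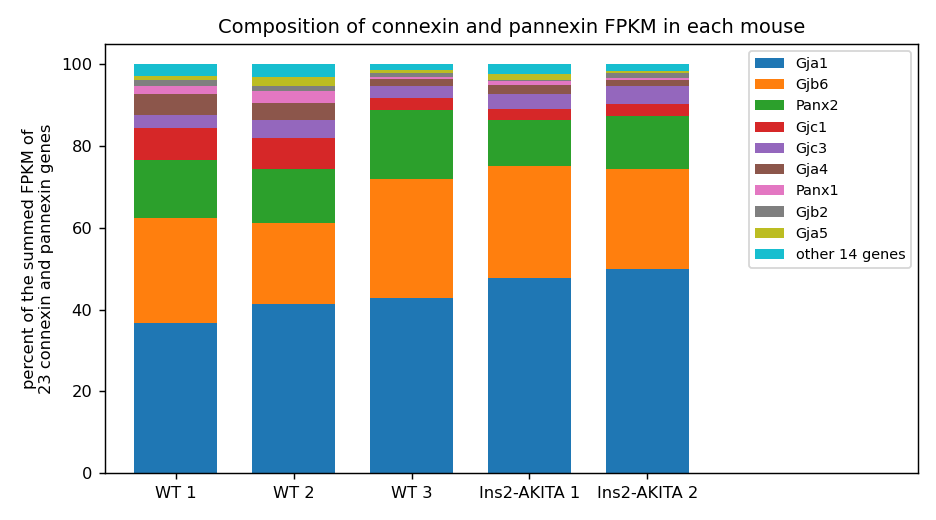
Percent of the summed FPKM of all 23 connexin and pannexin genes held by each gene, stacked, for each of the 5 mice. *Gja1*, *Gjb6* and *Panx2* fill more than 70% of each bar, and the *Gjc1* and *Gja4* bands are widest in WT 1 and WT 2.

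Of the other 15 genes of the family, 5 averaged 1 FPKM or more and entered the test. *Panx2*, a pannexin known from neurons, was by far the highest of these, at 43.7, 35.9 and 74.6 FPKM in WT mice, against 41.1 and 55.6 FPKM in Ins2-AKITA mice, and its log2 fold change was -0.03 (SE 0.34). *Gjb1*, a connexin of oligodendrocytes, measured 1.30 to 2.66 FPKM over the 5 mice (-0.34 on the log2 scale). *Gjd3* (0 to 2.47 FPKM) and *Gja6* (0 to 2.48 FPKM) were each listed at 0 in WT 3, with log2 fold changes of 0.22 and 0.54. No gene of these 5 passed an adjusted p of 0.05 in limma, and none had an unadjusted p under 0.05. The remaining 10 were below the filter, and *Gja3*, *Gjb5*, *Gje1* and *Panx3* were among those listed at 0 in every mouse.

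The proteins that bind or modify connexins were followed in a list of 14 genes, all of them tested. Of their log2 fold changes 8 were above 0 and 6 below, with a median of 0.15, and none passed an adjusted p of 0.05 or an unadjusted p of 0.05 in limma. *Tjp1*, the scaffold that binds the tail of the *Gja1* protein, measured 53.2, 60.4 and 61.0 FPKM in WT mice, against 46.0 and 64.8 FPKM in Ins2-AKITA mice. *Mlc1*, an astrocyte end-foot protein, had a log2 fold change of 0.42, and *Dbn1*, an actin-binding partner, one of -0.37. For 2 of the 14 genes both Ins2-AKITA values lay above all WT values, and for 0 both lay below. Over all symbols these shares were 9.24% and 10.3%. The 2 genes were *Src* (69.1, 65.6 and 72.9 FPKM in WT, 75.6 and 75.5 in Ins2-AKITA mice) and *Csnk1d* (34.3, 35.5 and 40.8 FPKM, against 45.2 and 41.4), both kinases that phosphorylate the *Gja1* protein.

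The genes that sense or degrade the ATP released by pannexin and connexin channels were a list of 14, of which 13 were tested. Their log2 fold changes ran from -0.43 for *P2rx4*, an ATP-gated channel, to 0.59 for *Nt5e*, the enzyme that makes adenosine from AMP. Of these 6 were above 0 and 7 below, with a median of -0.03, and none passed an adjusted p of 0.05 or an unadjusted p of 0.05 in limma. *Entpd1*, the ATP-degrading enzyme of endothelium, measured 34.4, 32.9 and 27.5 FPKM in WT mice, against 37.9 and 22.9 FPKM in Ins2-AKITA mice. Its Ins2-AKITA values thus lay on opposite sides of the WT range.

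For each of the 8 genes the tested symbol of at least 5 FPKM on average with the most similar pattern over the 5 mice was looked up. Likeness was the root mean square difference of log2(FPKM + 1) values centred over the mice. The nearest symbols were *Vamp4* for *Gja1* (0.043), *Gng5* for *Gjb6* (0.073), *Bloc1s1* for *Gjb2* (0.037) and *Xkr6* for *Gja4* (0.039). They were *Tmub1* for *Gja5* (0.056), *Ralgapa2* for *Gjc1* (0.057), *Rnf115* for *Gjc3* (0.022) and *Scarna6*, a small RNA gene, for *Panx1* (0.080). The SD of the 8 genes over the mice was 0.27 to 0.64 on that scale. Each match is the best of 11262 or 11263 symbols over 5 mice.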

How the data were processed

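RNA of brain microvascular fragments was depleted of rRNA and tRNA and made into stranded libraries, 1 per mouse. The authors mapped the reads to NCBIM37 with TopHat2 2.0.4, filtered duplicates with Picard 1.92 and compared genotypes with Cufflinks 2.2.1. The deposited values are FPKM per Ensembl identifier and mouse. The program behind these FPKM values and the Ensembl release are not given in the sources used here. Removing duplicates can lower high values of short genes.

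Of 37982 identifiers, 37197 matched the GENCODE vM1 annotation, and rows sharing a symbol were summed. Symbols averaging 1 FPKM or more were compared by limma 3.58.1 under R 4.3.3 (lmFit, eBayes with trend, two-sided) on log2(FPKM + 1), a scale that understates changes of low genes, with genotype as the only factor. Python 3.11.15 was used elsewhere. The fit was tested on simulated data. Alternatives were a pseudocount of 0.1, no filter or a filter at 5, TPM, scaling to the protein-coding sum or by median ratio, a constant prior variance, the replicate number as a block, the highest row per symbol, and leaving out each mouse, and for the ratios a geometric mean of the markers.

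FPKM lists no depth. Fragments per mouse were estimated from genes with 1 transcript, whose values, after subtraction of 224 to 229 nt from the exon length, fell within 0.05 of a whole fragment in 97.3% to 97.9% of cases. For genes with several transcripts the fragment numbers are approximate. Small RNA and rRNA genes held 40.6% to 96.7% of the FPKM sum of a mouse, which TPM inherits, while the protein-coding sum ran from 388375 to 421375 FPKM.

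The 8 genes and the marker and pathway lists were chosen with earlier results of these data known. Named are the 8 genes, tested family genes (single family genes are not reported here), the nearest pattern of each of the 8, and list genes with an unadjusted p under 0.05 in limma. The genes *Gja3*, *Gjb5*, *Gje1*, *Panx3*, *Tjp1*, *Mlc1*, *Dbn1*, *Src*, *Csnk1d*, *P2rx4*, *Nt5e*, *Entpd1*, *Stmn2*, *Slc1a2*, *Aldoc*, *Mbp*, *Mobp* and *Cnp* were named after their values were seen. The lists of neuronal (707 to 837 FPKM summed), microglial (68.4 to 109) and fibroblast markers (28.7 to 36.2) were measured too. Replicates are separate mice.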

Additional observations from a re-analysis of the deposited data

How the results depend on the processing

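None of the 8 genes, of the other family genes, of the channel partners or of the ATP and adenosine genes passed an adjusted p of 0.05 under any of the 14 alternatives. Over all symbols 4 passed, and 35 with no filter, 2 with a filter at 5, 88 in TPM and 2 to 11 with single mice left out (2 without WT 2, 11 without Ins2-AKITA 2). The median log2 fold change of the 8 genes, -0.22, was -0.31 with a pseudocount of 0.1, 0.31 with a filter at 5, where only *Gja1*, *Gja4*, *Gjb6*, *Gjc1* and *Gjc3* remain tested, and 0.77 in TPM. With single mice left out it ran from -0.27 to -0.075. TPM moved the median of all symbols to 1.07 and turned the sign of *Gja4* (0.75), *Gja5* (0.57), *Gjb2* (0.76), *Gjc1* (0.78) and *Panx1* (0.32), and relative to that median these were -0.32, -0.50, -0.31, -0.28 and -0.75. With single mice left out *Gja5* ran from -0.70 to 0.32 and *Gjb2* from -0.96 to 0.47, *Gja5* turning sign without WT 2 (0.08) or Ins2-AKITA 2 and *Gjb2* without Ins2-AKITA 1. *Gja1* ran from 0.39 to 0.77, *Gjb6* from 0.01 to 0.63, *Gjc1* from -0.95 to -0.48 and *Panx1* from -1.23 to -0.49, with no change of sign. Unadjusted p fell under 0.05 in limma for *Gjc3* in TPM, beside 1913 of 16286 symbols, with a smallest adjusted p among the 8 genes of 0.27. In TPM limma drew the error of each gene from all symbols together (median of 48858 degrees of freedom). In all, 101 of the log2 fold changes of single genes under an alternative kept their sign and their side of the threshold, and 8 reversed. With single mice left out, the log2 ratio differences ran from -0.32 to 0.77 for *Gja5* over the endothelial markers, -0.15 to 0.81 for *Gja5* over *Gja4*, -0.28 to 0.19 for *Gja4* over the endothelial markers, -0.23 to 0.05 for *Gja1* over *Aqp4* and -0.64 to -0.05 for *Gjc1* over the mural markers. The other 4 ratios kept their sign.

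The replicate numbers were not shown to pair the mice: deviations of same-numbered mice correlated at 0.051 and -0.034, and WT 3 had no partner. With the replicate number as a block, 5 symbols passed the adjusted threshold in limma and none of the 8 genes did. WT 3 was alone in its block and added nothing to the estimates. They equal those found without WT 3 and are no separate result. In that fit the log2 fold changes of *Gja1* (0.77), *Gja4* (-0.79), *Gjc1* (-0.95) and *Panx1* (-1.23) had unadjusted p-values of 0.024, 0.045, 0.033 and 0.050 in limma, beside 7.67% of all symbols under 0.05, with a smallest adjusted p of 0.60. With 2 Ins2-AKITA mice, and with 1 assumed to vary like the WT mice where the other was left out, differences smaller than the intervals given could not be seen. About 4 to 29 fragments behind each *Gjb2*, *Gja5* or *Panx1* value limit these genes further.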
